A study of Mus musculus with 95 samples.

Results

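HPC-1, a population of multipotent blood progenitors, was compared between the middle weeks after a bone marrow transplant and steady state. The 17 libraries were chosen by their titles: 9 HPC-1 libraries from 5, 6 and 8 weeks after transplant, with 3 at each week, and 8 HPC-1 libraries from untreated mice. The whole series held 95 libraries. Transplanted mice had received 900 cGy of irradiation and 8000 Lin-Sca1+Kit+ (LSK) cells, and the steady-state mice had received neither. The labels named the strain B6.SJL and an age of 8 to 12 weeks for both groups. RNA of sorted bone marrow cells was copied with SMART-Seq v4, a method for small cell numbers, and sequenced in bulk. The labels gave a single surface gate, CD48- CD150+, for every population of the series, so the gate of HPC-1 itself is known here only through the population's name. Nothing in them says whether replicate libraries are from different mice, and p therefore covers the spread among the libraries at hand, which may be technical.

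Blood is renewed from hematopoietic stem cells (HSC) through multipotent progenitors that keep LSK surface markers but lose self-renewal. In the usual scheme of SLAM surface markers, HPC-1 are LSK cells that carry CD48 and lack CD150, and they hold the progenitors primed toward the lymphoid and the granulocyte-monocyte lineages. After irradiation, donor progenitors of this kind refill the marrow over weeks, and B cell and T cell output returns later than myeloid output.

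The 9 libraries of weeks 5 to 8 held 3551908 to 7162046 counts and the 8 steady-state libraries 3990766 to 5585342 counts. Genes detected per library numbered 12600 ± 1770 (SD, n = 9) at weeks 5 to 8 and 14000 ± 1110 (SD, n = 8) at steady state, and this difference did not pass the two-sided exact permutation test (p = 0.0852). Fewer than 11000 genes were detected in 5-week replicates 1 and 2 and in 8-week replicate 2, and in no steady-state library of HPC-1. Mitochondrially encoded genes took 1.65% ± 0.902 of the counts at weeks 5 to 8 and 1.68% ± 0.544 at steady state (exact permutation p = 0.928). Nearly the same counts under another label were found for 3 of the 17 libraries, with a chi-square per degree of freedom of 2.01 to 3.82. Of all 4465 pairs of libraries 6 were below 10. The smallest value above 10 was 15.1 and the median of the pairs above 10 was 119. The 8-week replicate 3 matched HPC-1 10-week replicate 3, the 5-week replicate 1 matched an HPC-2 library of 8 weeks, and steady-state replicate 7 matched HPC-2 steady-state replicate 7. No such pair lay within the 17 libraries, and the main values below are also given without these libraries.

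The sort markers were those of HPC-1 in the textbook scheme, not those of the gate in the labels. Cd48 had 387 to 1630 counts scaled to library size (CPM) at weeks 5 to 8 and 534 to 2000 CPM at steady state. Slamf1, which encodes CD150, was at 0 in 6 of 9 libraries of weeks 5 to 8 and in 6 of 8 at steady state, with highest values of 10.9 and 3.28 CPM. HSC libraries of the same weeks had a median of 42.3 CPM of Cd48 and 82.1 CPM of Slamf1, so the populations differed in both markers in the way their names imply. Kit had 10 to 166 CPM and Ly6a, which encodes Sca1, 89.1 to 487 CPM at weeks 5 to 8, against 73.1 to 113 CPM and 166 to 527 CPM at steady state. Flt3, the receptor of lymphoid-primed progenitors, had 75.9 to 437 CPM at weeks 5 to 8 and 78.2 to 447 CPM at steady state. The ranges of all these markers overlapped between the groups.

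No gene was called different between weeks 5 to 8 and steady state in HPC-1. Of 10468 genes tested with edgeR's quasi-likelihood test, 0 (0%) had a Benjamini-Hochberg adjusted p under 0.05, and the smallest adjusted p was 1. At an unadjusted p under 0.05 there were 206 genes (1.97%), of which 112 (1.07%) were higher at weeks 5 to 8 and 94 (0.898%) were lower. The changes were centred near 0, with a median log2 change of -0.00285, and 49.7% of genes had a positive one. The spread between libraries was wide: the common biological coefficient of variation was 0.908 and the median standard error (SE) of a log2 change was 0.61, or 0.494 among the 7971 genes of at least 10 CPM. DESeq2 called 3 genes on the same counts, Selp, Serpinf1 and Gm10800, with 318 at an unadjusted p under 0.05, and limma voom with sample weights called 1, Slc44a1, with 1451. All genes described next were therefore not called by edgeR, and their values are given as measurements.

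Selp, the gene of the adhesion receptor P-selectin of platelets and endothelium, was the gene of smallest p and the only tested gene with every library of weeks 5 to 8 above every steady-state library (0.00955% of genes tested). Its gene lies on chromosome 1 at 164115264 to 164150026 of GRCm38, plus strand. It had 16.4, 42.4 and 97.1 CPM (lowest, median and highest) at weeks 5 to 8, against 0, 5.84 and 14.6 CPM at steady state. The log2 change was 2.91 (SE 0.688, unadjusted p = 0.000394, edgeR), and DESeq2 gave 2.94 with an adjusted p of 0.00706. The change was of like size at each week, with log2 changes of 3.27, 2.70 and 2.69 at 5, 6 and 8 weeks, and the pooled value was 2.88 without 8-week replicate 3 and 2.81 without all 3 near-identical libraries. HPC-1 libraries of weeks 3 and 4 had 15.2 to 134 CPM and those of weeks 10 to 16 had 6.57 to 72.9 CPM. In HSC the groups overlapped, with 0 to 50.1 CPM at weeks 5 to 8 and 0 to 43.2 CPM at steady state. These are bulk samples, so fewer cells of a type and less RNA per cell cannot be told apart here or in any result below.

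Serpinf1, which encodes the secreted factor PEDF, an inhibitor of blood vessel growth, showed the reverse arrangement. The gene lies on chromosome 11 at 75409769 to 75422701, minus strand. It had 0, 16.6 and 58.9 CPM at weeks 5 to 8 and 70.2, 134 and 255 CPM at steady state, with every library of weeks 5 to 8 below every steady-state library. The log2 change was -2.99 (SE 0.721, unadjusted p = 0.000473, edgeR), DESeq2 gave -2.98 with an adjusted p of 0.0306, and the edgeR value was -3.0 without 8-week replicate 3 and -2.84 without all 3 near-identical libraries. By week it was -3.78, -2.39 and -3.12 at 5, 6 and 8 weeks. Outside the window, HPC-1 had 0 to 26.2 CPM at weeks 3 and 4 and 0 to 56.3 CPM at weeks 10 to 16. The same non-overlap toward lower values was seen in 4 genes (0.0382% of those tested): Serpinf1, Bex1, Smkr-ps and Cd33.

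Cd33, a receptor of myeloid cells from a family that binds sialic acids, had 0, 18.9 and 26.5 CPM at weeks 5 to 8 and 36.7, 52.9 and 69.4 CPM at steady state (log2 change -1.86, SE 0.669, unadjusted p = 0.0115, edgeR). Bex1 had 0 to 9.25 CPM at weeks 5 to 8 and 12.9 to 31.5 CPM at steady state. Smkr-ps, annotated as a long intergenic noncoding RNA, had 0 to 3.39 CPM and 3.8 to 8.81 CPM, values near the floor. For Cd33, Bex1 and Smkr-ps the gap between the groups was narrow beside the range within each.

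**Figure D1:**
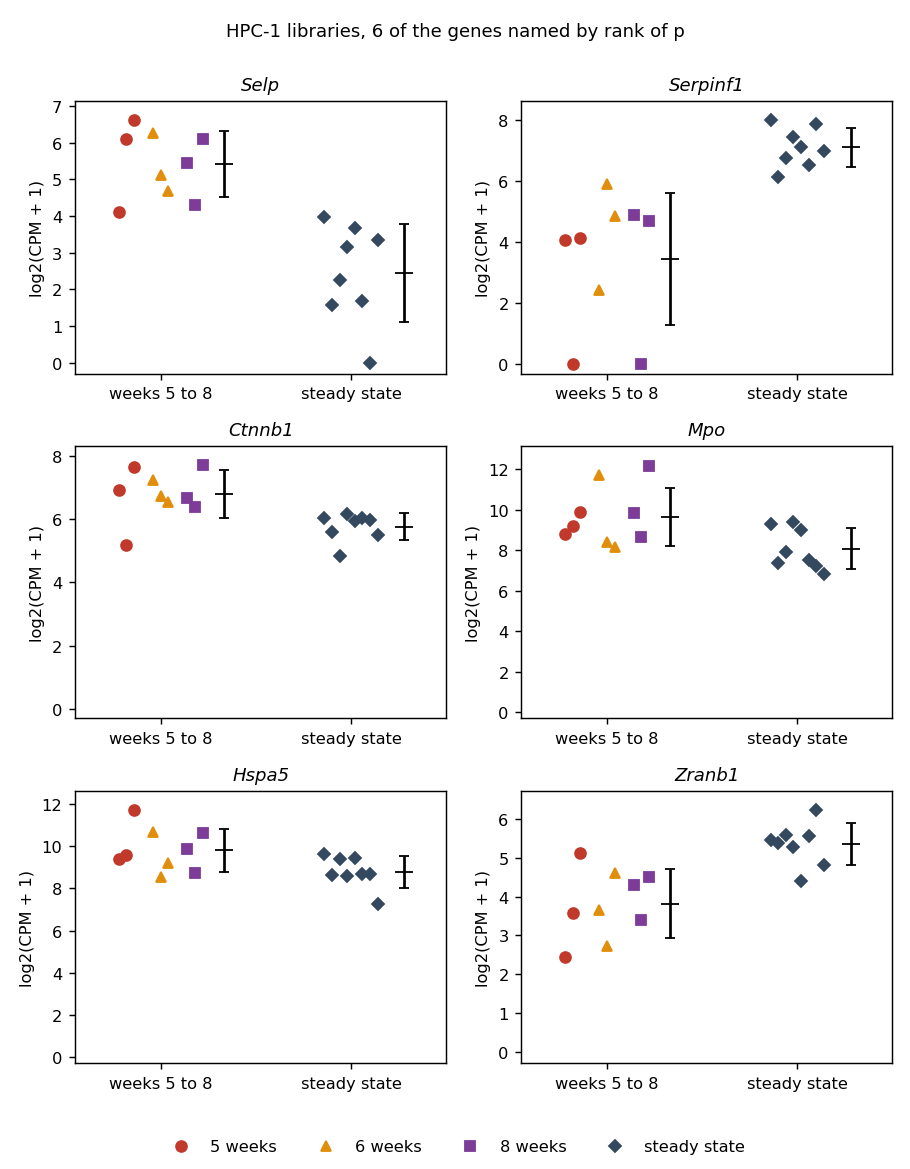
Each point is 1 HPC-1 library, on a log2(CPM + 1) axis, at weeks 5 to 8 (left, 9 libraries) and at steady state (right, 8 libraries), with bars for the mean ± SD. Selp and Serpinf1 do not overlap between the groups, while Ctnnb1, Mpo, Hspa5 and Zranb1 do.

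Next to Selp, 7 further genes on the higher side were taken by the naming rule, first those with at least 80% of each group's libraries on its own side of the midpoint (Ctnnb1 and Ero1l) and then the next by p. Ctnnb1, which encodes the Wnt signalling protein beta-catenin, had 35.3, 104 and 207 CPM at weeks 5 to 8 against 27.8, 61.2 and 70.7 CPM at steady state (log2 change 1.09, SE 0.279, unadjusted p = 0.000877, edgeR). Mpo, the myeloperoxidase of granulocyte precursors, had 281, 591 and 4620 CPM at weeks 5 to 8 and 114, 211 and 672 CPM at steady state. Its log2 change of 1.93 (SE 0.546, unadjusted p = 0.00199, edgeR) leaned on a pair of libraries, 8-week replicate 3 with 4620 CPM and 6-week replicate 1 with 3300 CPM. Without 8-week replicate 3 it was 1.45, and without all 3 near-identical libraries 1.44. Csnk1d, casein kinase 1 delta, had 7.31 to 116 CPM at weeks 5 to 8 and 9.9 to 25.3 CPM at steady state (1.46). Plscr1, a phospholipid scramblase, had 58.6 to 193 CPM and 34.4 to 82 CPM (0.82). The groups overlapped for all 4 genes, and the highest libraries were of weeks 5 to 8.

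Hspa5, the chaperone BiP of the endoplasmic reticulum, had 376, 762 and 3310 CPM at weeks 5 to 8 and 152, 408 and 792 CPM at steady state (log2 change 1.15, SE 0.387, unadjusted p = 0.00744, edgeR). Ero1l, an oxidase of the same compartment that forms disulfide bonds, had a median of 71.5 CPM at weeks 5 to 8 and 27.1 CPM at steady state (1.34, SE 0.649, unadjusted p = 0.0521, edgeR), but 5-week replicate 1 held 0 CPM. Xlr4c, of an X-linked family of near copies whose counts are uncertain for that reason, had 1.14 to 43.9 CPM and 1.06 to 8.76 CPM.

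On the lower side, Zranb1, a deubiquitinase, had 4.48, 11.6 and 33.7 CPM at weeks 5 to 8 against 20.3, 41.8 and 74.1 CPM at steady state (log2 change -1.52, SE 0.437, unadjusted p = 0.00231, edgeR). Vamp7, a vesicle fusion protein, had 125, 158 and 236 CPM at weeks 5 to 8 and 192, 257 and 437 CPM at steady state (-0.78, SE 0.238). Ldhb, a lactate dehydrogenase subunit, had 8.45, 39.9 and 97.9 CPM and 47.9, 117 and 185 CPM (-1.17, SE 0.364). The groups overlapped for each of these genes, and the highest libraries were at steady state.

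Eif1b, a translation initiation factor, had a median of 123 CPM at weeks 5 to 8 and 191 CPM at steady state (-0.57), Mttp, a lipid transfer protein, 12.8 and 27.7 CPM (-1.07), and Trim13, a ubiquitin ligase of the endoplasmic reticulum, 65.8 and 120 CPM (-0.56). Gm10800, a predicted gene whose reads may be shared with repeat copies and whose level is therefore uncertain, had 1.07 to 14.6 CPM at weeks 5 to 8 and 3.67 to 129 CPM at steady state (-2.93). Slc44a1, the choline transporter that voom called, had 0 in most libraries of weeks 5 to 8, with a highest value of 5.86 CPM, and 5.07 to 18.7 CPM at steady state.

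Genes of lymphoid priming lay mostly on the lower side at weeks 5 to 8. Of 26 listed genes 20 passed the filter on low counts, 0 were called, 3 had a positive log2 change and 17 a negative one, and the median was -0.488 (-0.784 to -0.362 over all alternatives), where 49.7% of all tested genes were positive and their median was -0.00285. Rag2, a subunit of the recombinase that assembles antigen receptor genes, had 0, 17.9 and 70.1 CPM at weeks 5 to 8 and 30.3, 80.6 and 206 CPM at steady state (log2 change -1.93, SE 0.769, unadjusted p = 0.0203, edgeR). Ighm, the immunoglobulin mu heavy chain, had 231, 493 and 934 CPM at weeks 5 to 8 and 429, 949 and 1910 CPM at steady state (-0.74, SE 0.299). Ly6d, a surface marker of progenitors set on the B cell path, had 2.32, 58.6 and 82.9 CPM and 20.7, 75.5 and 207 CPM (-1.28, SE 0.536). The groups overlapped for all 3, with the highest libraries at steady state.

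Ccr7, a chemokine receptor that guides progenitors and lymphocytes, had a median of 0 at weeks 5 to 8 and 12.2 CPM at steady state. Il7r, the interleukin-7 receptor needed for lymphocyte formation, had medians of 10.8 and 47.2 CPM (-1.66, unadjusted p = 0.122, edgeR). Dntt, the template-free DNA polymerase of early lymphoid cells, had 75.8, 615 and 1270 CPM at weeks 5 to 8 and 339, 839 and 1960 CPM at steady state (-0.63, unadjusted p = 0.129, edgeR).

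The mean log2(CPM + 1) over the lymphoid list was 3.15, 4.31 and 4.78 (lowest, median and highest library) at weeks 5 to 8 and 4.14, 5.06 and 5.87 at steady state. Of the libraries with fewer than 11000 detected genes, 5-week replicates 1 and 2 had 3.68 and 3.15 and 8-week replicate 2 had 4.3, while 6-week replicate 1 had 3.73. Without the 3 near-identical libraries the pooled median was -0.362. The list's median change was -1.29, -1.06 and -0.349 at 5, 6 and 8 weeks, and at 5 weeks it was -1.28 without 5-week replicate 1 and -2.55 without 5-week replicate 3. The value of -2.55 rests on 5-week replicates 1 and 2, both with fewer than 11000 detected genes. The list's members overlap with markers of B cells, whose summed level was 342 to 1230 CPM at weeks 5 to 8 and 489 to 2050 CPM at steady state. Of the 13 B cell markers 3 were tested, and Pax5 and Cd22, which mark committed B cells, were at 0 in all 17 libraries. The part of detected gene number in the lymphoid values was not tested.

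Mast cell proteases were found at 5 weeks in all 3 libraries. Mcpt4, a chymase stored in mast cell granules (chromosome 14, 56059629 to 56062313, minus strand), had 69.1, 24.1 and 97.3 CPM at 5 weeks. It had 3.01, 0 and 0.368 CPM at 6 weeks, 0 in all 3 libraries at 8 weeks and 0 in all 8 steady-state libraries. In HPC-1 it ran from 0 to 182 CPM at weeks 3 and 4 and was at 0 in every library of weeks 10 to 16. Mcpt4 did not pass the filter of the pooled comparison. In the test of 5 weeks against steady state its unadjusted p was 2.44e-05 and its adjusted p 0.308 by edgeR, the adjusted p was 0.0206 without a filter on low counts, and DESeq2 called it with 3.95e-08. By edgeR the adjusted p was 0.677 without 5-week replicate 1, the library that nearly matches an HPC-2 one, and 0.0244 without 5-week replicate 3.

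Cma1, another mast cell chymase, was within the window also highest at 5 weeks, and ran from 0 to 511 CPM at weeks 3 and 4. It had 267, 341 and 297 CPM at 5 weeks, 29.5, 0 and 178 CPM at 6 weeks, 15.1, 5.63 and 5.17 CPM at 8 weeks and 0 to 46.9 CPM at steady state (pooled log2 change 3.64, SE 1.41, unadjusted p = 0.0176, edgeR; 3.40 without 5-week replicate 1). Tpsb2, a mast cell tryptase with a close copy, had 155, 74.7 and 229 CPM at 5 weeks and 0 to 13.6 CPM at steady state (4.10, SE 1.47, and 3.73 without 5-week replicate 1). Of the 14 genes on the mast cell and basophil list 10 were tested, 0 were called, 6 had a positive change and the median was 0.151, or -0.143 without the 3 libraries of fewest detected genes and -0.0566 without the 3 near-identical libraries. The list's median thus did not share the size of the Mcpt4, Cma1 and Tpsb2 values. By week it was 0.52, 0.284 and -0.461 at 5, 6 and 8 weeks, over the genes kept in the week fit. The list's mean log2(CPM + 1) was 4.68, 4.88 and 4.96 at 5 weeks, above every steady-state library (2.25 to 4.39). At 6 and 8 weeks it was 2.78 to 4.53 and overlapped with steady state. The list's summed level was 1100 to 4630 CPM at weeks 5 to 8 and 1180 to 4260 CPM at steady state.

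**Figure D2:**
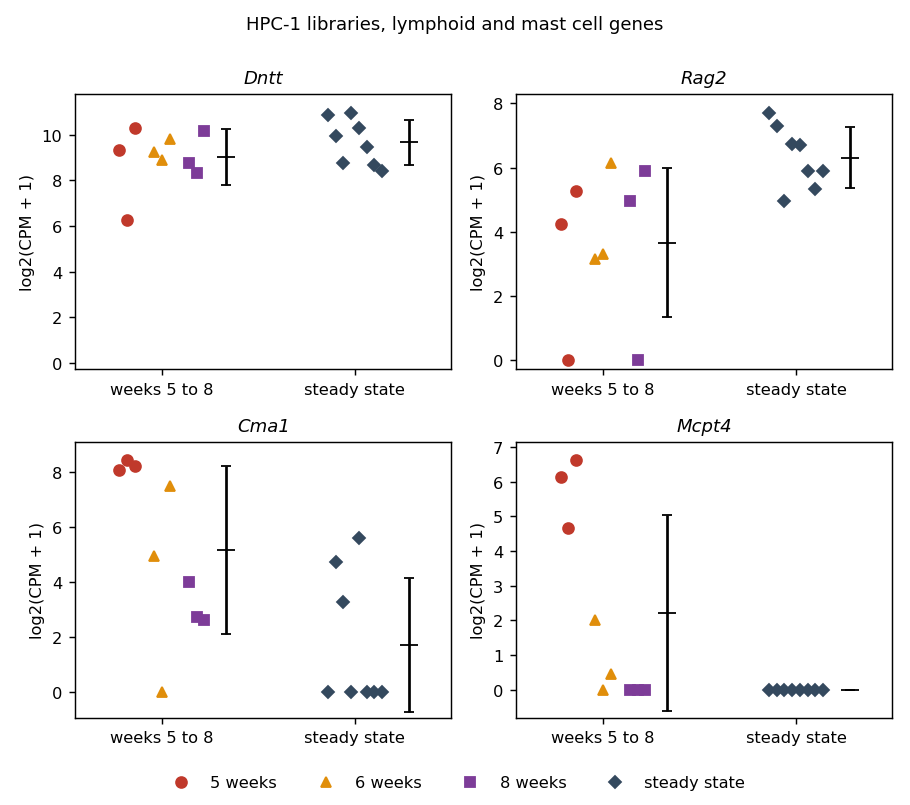
Each point is 1 HPC-1 library, on a log2(CPM + 1) axis, at weeks 5 to 8 (left, with a symbol for each week) and at steady state (right), with bars for the mean ± SD. The chymases Cma1 and Mcpt4 are high in all 3 libraries of 5 weeks, and the lymphoid genes Dntt and Rag2 overlap between weeks 5 to 8 and steady state.

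Markers of other mature cells overlapped between the groups. T cell and NK cell markers summed to 40.1 to 172 CPM at weeks 5 to 8 and 28.8 to 241 CPM at steady state, with 2 of 14 tested and Cd3e, Cd8b1 and Prf1 at 0 in all 17 libraries. Neutrophil markers, with 6 of 12 tested, summed to 82.4 to 1250 CPM and 2.96 to 4280 CPM. Their mean log2(CPM + 1) was 1.66, 3.06 and 4.81 (lowest, median and highest library) at weeks 5 to 8. At steady state it was 0.229, 1.29 and 4.31, so the median library was lower there. In the fit, by contrast, 5 of the 6 tested genes had a negative log2 change, with a median of -0.628. Monocyte and macrophage markers, with 5 of 13 tested, summed to 624 to 1380 CPM and 579 to 1110 CPM. Endothelial and stromal markers, with 3 of 12 tested and Col1a2 and Col3a1 at 0 in all 17 libraries, summed to 38.7 to 127 CPM at weeks 5 to 8 and 73.2 to 160 CPM at steady state. None of these sums separated the groups.

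The myeloid, erythroid and stem cell lists held no called gene either. Of 22 tested genes of granulocyte and monocyte priming 13 had a positive change and 9 a negative one, with a median of 0.146. After Mpo, the next by p were Csf2ra (log2 change -0.87, SE 0.501), Csf1r (-2.09, SE 1.25) and Fcgr3 (1.52, SE 0.964). Elane, the neutrophil elastase, was chosen after its values were seen. It had 55.8, 429 and 1740 CPM at weeks 5 to 8 and 0, 147 and 657 CPM at steady state (log2 change 1.13, SE 0.778). Of 15 tested genes of erythroid priming 13 were positive, with a median of 0.51, but it was -0.273, 1.16 and -0.536 at 5, 6 and 8 weeks and -0.35 by voom. Tfrc, the transferrin receptor, had 36.6, 79 and 198 CPM and 17, 57.4 and 105 CPM (0.83, SE 0.364). Of 15 tested HSC identity genes 11 were positive, with a median of 0.542, and Gata2, a transcription factor of stem cells, had 8.24, 22.6 and 50.1 CPM at weeks 5 to 8 and 9, 13.6 and 22.4 CPM at steady state. That list's median was 0.0127 when the 3 weeks were weighted equally.

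Chaperones of the endoplasmic reticulum were nearly all on the higher side at weeks 5 to 8. Of 19 tested genes 17 had a positive change, 0 were called, and the median was 0.309. Herpud1, a part of the disposal route for misfolded proteins, had 54.7, 185 and 378 CPM at weeks 5 to 8 and 37.2, 92.9 and 200 CPM at steady state (log2 change 0.78, SE 0.333, unadjusted p = 0.0299, edgeR). Dnajc3, a co-chaperone of BiP, had 71.8, 197 and 307 CPM and 35.6, 102 and 184 CPM (0.69, SE 0.311). Pdia4, a protein disulfide isomerase, had 11.5, 68.2 and 298 CPM and 5.18, 23.6 and 154 CPM (1.22, SE 0.663). The list's median ran from 0.00165 to 0.535 over the alternatives. Its mean log2(CPM + 1) per library was 5.85, 6.68 and 7.88 (lowest, median and highest) at weeks 5 to 8. At steady state it was 5.43, 6.67 and 7.19, so the groups overlapped and their median libraries were nearly alike. Steady-state replicate 8 held the lowest value and 5-week replicate 3 the highest.

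Lists of metabolism, cell division and interferon response held no called gene and differed in direction. Genes of cytosolic ribosomal proteins were positive in 1 of 79 tested, with a median of -0.182, and nuclear genes of oxidative phosphorylation in 8 of 61, with a median of -0.106, so most members of these long lists had small negative values. The sign of the ribosomal median was the same under every alternative (-0.6 to -0.0558), and that of oxidative phosphorylation was positive with the block of 12 description numbers (0.0493). Members of such lists share 1 scaling per library, so their signs are not independent. The main axis of variation among the 17 libraries (first principal component) held 31.3% of the variance. Its Pearson correlation with the share of counts in the top 50 genes was -0.965. The part of scaling and of library make-up in these lists was not tested. DNA replication genes were positive in 20 of 36 and mitosis genes in 19 of 30, with medians that changed sign when the 3 weeks were weighted equally (-0.00475 and -0.0281), and glycolysis genes in 16 of 21. Type I interferon response genes were positive in 14 of 39, with a median of -0.0705. Ifi44, an interferon-induced gene, had 12.4, 32.6 and 86.7 CPM at weeks 5 to 8 and 10.2, 82.7 and 134 CPM at steady state (-1.02, SE 0.43), while the interferon-induced GTPase Gbp7 had 18.7, 46.9 and 178 CPM and 27.4, 37.6 and 50.6 CPM (1.05, SE 0.381). The members of interferon response thus lay on both sides.

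**Figure D3:**
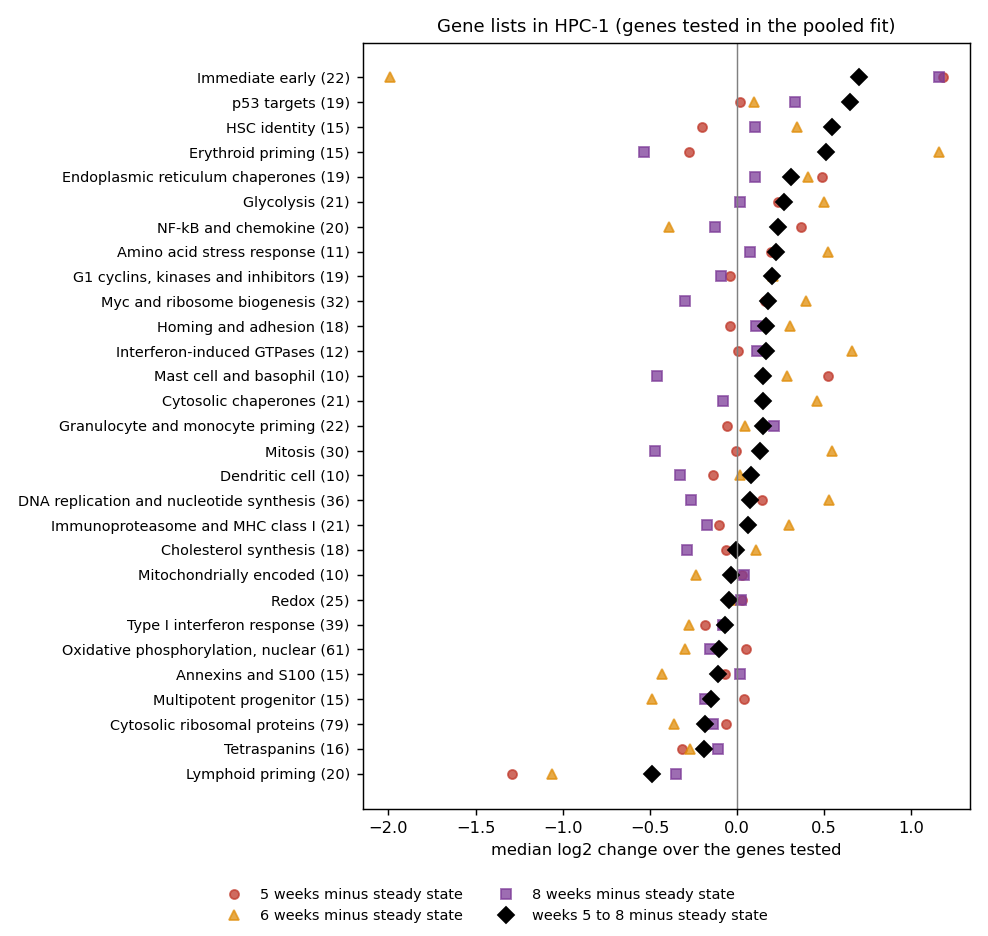
The horizontal axis is the median log2 change against steady state over the tested genes of each list with at least 10 tested in the pooled fit. Each list has a row with a diamond for the pooled value and a symbol for each of weeks 5, 6 and 8. Weekly values are over the genes kept in the week fit, which can differ from the pooled ones. Immediate early genes have the widest gap between weeks, from -1.99 at 6 weeks to 1.18 at 5 weeks, and lymphoid priming is below 0 at every week.

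Immediate early genes, which cells transcribe within minutes of a stimulus or of handling, set the weeks of the window apart. Of 27 listed genes 22 were tested in the pooled comparison, 21 had a positive change, 0 were called, and the median was 0.702. That value hides opposite weeks: the median was 1.18 at 5 weeks, -1.99 at 6 weeks and 1.16 at 8 weeks. A classic element of such promoters is the core of the site for CREB, a factor switched on by cyclic AMP and calcium. The promoters of 4 members are shown because they hold this core, TGACG, searched on both strands (CGTCA on the other), in the 250 bases before the start site. They come from RefSeq on GRCm38.p6, 5′ to 3′ on the gene's strand, with each match in capitals: Fos at chr12:85473640-85473889 (plus strand), Junb at chr8:84978749-84978998 (minus), Nr4a1 at chr15:101266596-101266845 (plus) and Btg2 at chr1:134079156-134079405 (minus).
Fos: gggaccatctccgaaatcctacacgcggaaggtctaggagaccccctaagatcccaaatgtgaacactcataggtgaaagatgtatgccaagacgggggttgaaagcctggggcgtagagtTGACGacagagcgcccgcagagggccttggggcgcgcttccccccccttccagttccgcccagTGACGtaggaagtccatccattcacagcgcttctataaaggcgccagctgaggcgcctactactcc
Junb: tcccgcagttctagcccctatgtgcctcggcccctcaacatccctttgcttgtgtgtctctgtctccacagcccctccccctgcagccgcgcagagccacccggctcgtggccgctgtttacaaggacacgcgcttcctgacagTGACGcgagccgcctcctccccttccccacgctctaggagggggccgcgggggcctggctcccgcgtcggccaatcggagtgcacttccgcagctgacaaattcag
Nr4a1: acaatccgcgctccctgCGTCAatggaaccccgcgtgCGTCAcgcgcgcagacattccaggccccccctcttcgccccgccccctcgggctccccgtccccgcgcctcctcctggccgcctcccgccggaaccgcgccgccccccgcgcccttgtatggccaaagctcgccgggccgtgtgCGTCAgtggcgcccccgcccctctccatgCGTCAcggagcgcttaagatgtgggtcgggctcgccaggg
Btg2: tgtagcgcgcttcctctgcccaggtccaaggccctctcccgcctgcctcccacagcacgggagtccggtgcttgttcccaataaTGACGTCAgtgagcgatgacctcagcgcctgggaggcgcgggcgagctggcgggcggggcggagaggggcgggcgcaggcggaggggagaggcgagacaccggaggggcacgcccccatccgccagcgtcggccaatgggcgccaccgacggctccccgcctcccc
Fos held 2 matches, Junb 1 and Nr4a1 4, and in Btg2 2 matches on opposite strands overlapped in the palindrome TGACGTCA. Of the 22 listed genes with a promoter there, 12 (54.5%) held TGACG, while 17.9% of all 27025 promoters did, and TGACGTCA was in 2 of the 22, Dusp1 and Btg2, against 1.62% of all. These matches describe letters in the window and say nothing of binding in these cells.

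Fos, a subunit of the transcription factor AP-1, had 1080, 1240 and 3570 CPM at 5 weeks, 212, 319 and 129 CPM at 6 weeks and 1810, 1610 and 1830 CPM at 8 weeks. At steady state it had 163, 614 and 2080 CPM (lowest, median and highest), and the pooled log2 change was 0.68 (SE 0.557, unadjusted p = 0.236, edgeR). The 6-week libraries were all below those of 5 and 8 weeks. Cd69, an early activation receptor, had 2900, 3560 and 1760 CPM at 5 weeks, 76.5, 151 and 154 CPM at 6 weeks and 4080, 3100 and 525 CPM at 8 weeks, against 196 to 4020 CPM at steady state. Ier2, an immediate early nuclear protein, had 340, 306 and 847 CPM at 5 weeks, 154, 71.1 and 150 CPM at 6 weeks, 661, 431 and 950 CPM at 8 weeks and 193 to 650 CPM at steady state. Btg2, an antiproliferative target of p53, had 21.8, 107 and 544 CPM over weeks 5 to 8 and 21.1, 65.6 and 252 CPM at steady state.

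Of the 23 listed genes in the test of differences among the 3 weeks, 15 had every 6-week library below every library of 5 and 8 weeks, where 89 of 12662 genes (0.703%) did. An unadjusted p under 0.05 was reached by 14 of the 23, where 6.46% of all genes reached it. None passed the adjusted threshold by edgeR, with an adjusted p of 0.579 for Ier2. DESeq2 called 46 genes in this test, among them Ier2 (adjusted p = 0.00656), Fos (0.0132) and Cd69 (0.0309). Ccl3, a chemokine induced along with these genes, had 26.9, 51.7 and 39.7 CPM at 6 weeks against 181 to 1080 CPM at steady state (log2 change -4.03, adjusted p = 0.597 by edgeR and 1.02e-07 by DESeq2).

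Taken in blocks of 12, the samples' description numbers place 1 steady-state library of HPC-1 and 1 of HSC beside each week. At 5 and 8 weeks the steady-state library of the block was within or above the range of the transplanted ones, and at 6 weeks it was above them. The mean log2(CPM + 1) over the 27 genes was 5.27, 5.59 and 6.55 at 5 weeks, beside 5.46 in the steady-state library of that block. It was 3.02, 3.52 and 3.10 at 6 weeks beside 3.92, and 6.19, 5.79 and 5.29 at 8 weeks beside 6.37. The other steady-state libraries had 3.63, 4.04, 5.05, 3.19 and 3.80, so that 3.92 lay in the middle of the steady-state values and the libraries of the 5-week and 8-week blocks held the 2 highest. HSC of the same blocks had 5.45, 5.55 and 6.31 beside 5.58, then 3.11, 3.45 and 3.02 beside 4.48, and 6.05, 5.85 and 6.07 beside 6.89. With a term for the block, the list's pooled median was -0.286 (and -0.53 by voom, without that term), the log2 change of Fos was -0.25 and that of Cd69 was -0.55. Only steady-state replicates 3, 4 and 5 share a block with weeks 5 to 8, so the values with the block term rest on these steady-state libraries. In HSC the other steady-state libraries had 3.21 to 5.71. Across genes of at least 10 CPM, the deviation of a week's libraries from the mean of weeks 5 to 8 and that of the block's steady-state library from the steady-state mean had correlations of 0.168, 0.404 and 0.0883 at 5, 6 and 8 weeks. The labels do not say what the description numbers stand for, and the week and the block cannot be told apart among the transplanted libraries.

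**Figure D4:**
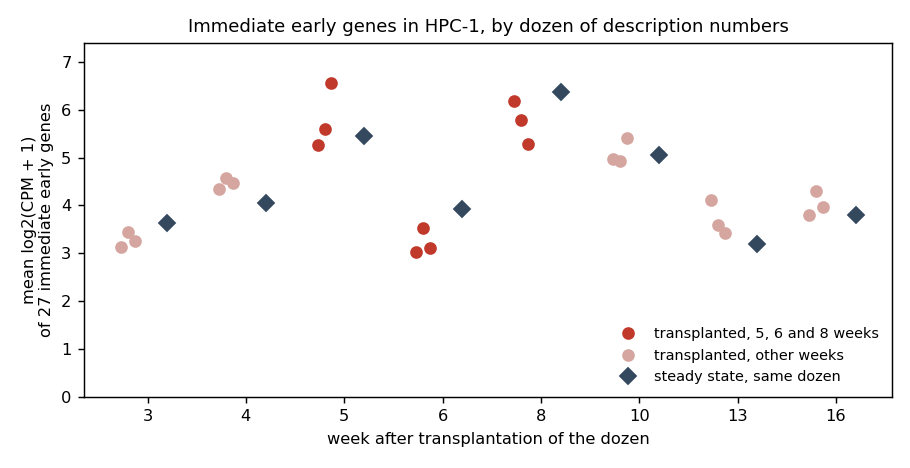
The vertical axis is the mean log2(CPM + 1) of 27 immediate early genes per HPC-1 library, by block of 12 description numbers, with the 3 transplanted libraries to the left and the steady-state library to the right in each block. The transplanted libraries of 6 weeks are low, at 3.02 to 3.52, below their steady-state library at 3.92, and the blocks of 5 and 8 weeks are high in both kinds of library, at 5.27 to 6.55 beside 5.46 and at 5.29 to 6.19 beside 6.37.

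Taken week by week against steady state, no gene of 12662 tested passed the edgeR threshold at 5, 6 or 8 weeks (0%). At an unadjusted p under 0.05 there were 774 genes (6.11%) at 5 weeks, 356 (2.81%) at 6 weeks and 781 (6.17%) at 8 weeks, and most lay on the lower side. The higher side held 1.22%, 0.798% and 0.758% of genes at 5, 6 and 8 weeks and the lower side 4.89%, 2.01% and 5.41%. DESeq2 called 105 genes at 5 weeks (2 higher, Mcpt4 and Selp, and 103 lower), 14 at 6 weeks (1 and 13) and 126 at 8 weeks (6 and 120). The weeks with most lower genes were those that held the 3 libraries of fewer than 11000 detected genes, and the part of detection in these counts was not tested. Single libraries also decided edgeR calls: without 5-week replicate 3, 140 genes were called at 5 weeks, 1 higher and 139 lower. That fit left 5-week replicates 1 and 2, both with fewer than 11000 detected genes. Without 8-week replicate 3, 5 genes were called lower at 8 weeks, Hif1a, Umad1, Alg11, Slc16a6 and Slc10a7. Pfkm, the muscle phosphofructokinase of glycolysis, had the smallest p at 8 weeks. It was at 0 in all 3 libraries of 8 weeks, at 6.07 to 27 CPM at 5 and 6 weeks and at 1.89 to 10.7 CPM at steady state (unadjusted p = 2.09e-05, adjusted p = 0.265, edgeR).

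The window was also set against the other weeks after transplant. Against weeks 3 and 4, 0 of 12364 genes (0%) were called by edgeR, 808 (6.54%) had an unadjusted p under 0.05, with 4.89% higher and 1.65% lower, and DESeq2 called 3, Ctla2a, Nfkbiz and Zfp931. Against weeks 10 to 16, 0 were called by edgeR, 491 (3.97%) had an unadjusted p under 0.05, with 2.63% higher and 1.34% lower, and DESeq2 called 9. The 8-week replicate 3 and the 10-week replicate 3 with nearly its counts stand on opposite sides of the last comparison. The later group also held HPC-1 13-week replicate 2, which nearly matched HPC-2 steady-state replicate 5 (chi-square per degree of freedom 2.04). The ranges of Selp and Serpinf1 given above overlapped between the window and both the earlier and the later weeks.

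The effect of weeks 5 to 8 was then compared between HPC-1 and HSC, which carry the long-term renewal of blood, as the difference of their changes against their own steady-state libraries. Plac8, whose cysteine-rich product is found in early myeloid and lymphoid cells, was the 1 gene of 12169 (0.00822%) that passed, and 681 genes (5.6%) had an unadjusted p under 0.05, 2.37% higher and 3.22% lower. It lies on chromosome 5 at 100553725 to 100572245, minus strand. In HPC-1 it had 1190, 3180 and 5100 CPM at weeks 5 to 8 and 1610, 2570 and 5990 CPM at steady state, and the groups overlapped. In HSC it had 762, 937 and 1600 CPM at weeks 5 to 8 against 47.4, 166 and 412 CPM at steady state, with no overlap. The change in HPC-1 minus the change in HSC was -2.71 on the log2 scale (SE 0.477, adjusted p = 0.0224, edgeR).

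The sign was negative under every alternative tried, from -2.99 to -2.36, and the adjusted p ran from 0.000786 by DESeq2 to 0.094 with RLE scaling. The call was lost when any 1 of 8 libraries was left out: HPC-1 5-week replicate 3, 6-week replicate 1, 8-week replicate 3 and steady-state replicates 3 and 8, and HSC 6-week replicate 2 and steady-state replicates 4 and 8. Without HPC-1 8-week replicate 3, the library with a near copy at 10 weeks, the value was -2.5 with an adjusted p of 0.066, and over all 8 the adjusted p ran from 0.0502 to 0.0668. HSC steady-state replicate 1, the highest of its group with 412 CPM, nearly matched an HPC-2 library of 13 weeks (chi-square per degree of freedom 4.5). Without all near-identical libraries together, this one included, Plac8 was called, with -2.99 and an adjusted p of 0.0207. Without HPC-1 6-week replicate 3 there were 3 called genes (Plac8, Gm11837 and Gfra4), and without HSC steady-state replicate 3 there were 2 (Plac8 and Gm11837). DESeq2 called 30 genes for this difference, 16 higher and 14 lower. Ctnnb1 had a difference of 1.79 by edgeR (unadjusted p = 0.000764, adjusted p = 0.318), which did not call it, and was among the genes called by DESeq2 (2.19, adjusted p = 0.0088).

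**Figure D5:**
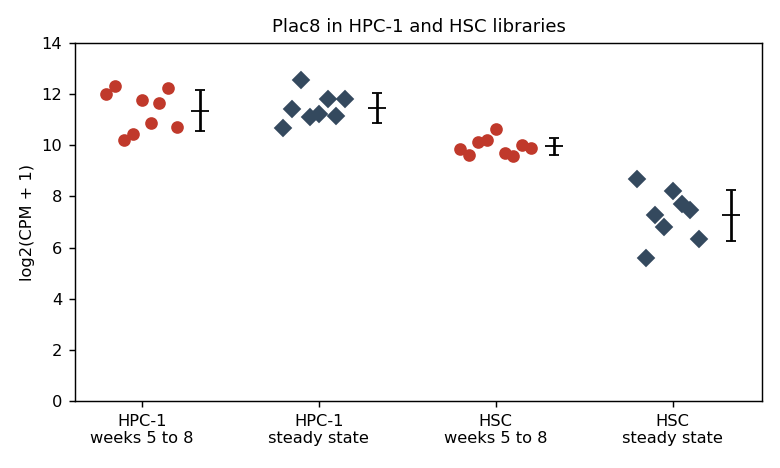
Each point is the Plac8 level of 1 library, on a log2(CPM + 1) axis, for HPC-1 at weeks 5 to 8 and at steady state and for HSC at weeks 5 to 8 and at steady state, with bars for the mean ± SD. The 2 HPC-1 groups overlap, while all HSC libraries of weeks 5 to 8 (762 to 1600 CPM) are above those of steady state (47.4 to 412 CPM).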

How the data were processed

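RNA of sorted HPC-1 was measured by SMART-Seq v4 sequencing. The authors deposited unnormalized whole-number counts for each gene and library. Reads were trimmed with Trimmomatic 0.36, aligned to GRCm38 (mm10) with HISAT2 2.0.5, processed with Picard and counted by featureCounts, per the submitters' processing notes. The strand setting was not given in the sources used here, so a gene cannot be told apart from an overlapping one on the other strand. Positions are from GENCODE M21, which held 99.6% of the gene IDs.

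Groups came from titles. Genes were kept by edgeR's expression filter, libraries were scaled by TMM and tested with edgeR's quasi-likelihood F test. Adjusted p (Benjamini-Hochberg, within each comparison) under 0.05 was called. The pooled comparison used 1 mean for weeks 5 to 8 and 1 for steady state. Weeks, other windows and HSC were tested in fits with 1 mean per group. Genes were filtered anew in each fit, so the pooled and weekly medians of a list can cover different members. Log2 changes are from the fit, and CPM are counts scaled to the library total, without TMM. Single library measures were compared by two-sided exact permutation over 24310 splits, whose smallest p is 4.11e-05. The test procedure was checked on simulated data.

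Genes named are 8 per direction of at least 10 CPM, first those with 80% of each group on its own side of the midpoint and then the next by p (none was called), up to 4 per list by p, sort markers, all called genes of short lists, and genes chosen after their values were seen (Bex1, Smkr-ps, Cd33, Dntt, Il7r, Elane, Mcpt4, Fos, Cd69, Ier2, Ccl3, Pfkm and Slfn2). The members and the 37 lists were chosen with earlier results of these data known. Alternatives were other scaling, filters, DESeq2, voom, blocks, and leaving out libraries. Leaving out libraries with fewer than 11000 detected genes, and the gene filter of the week fit in the pooled comparison, were chosen after seeing the data. R 4.3.3, edgeR 4.0.16, limma 3.58.1 and DESeq2 1.42.0 were used.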

Additional observations from a re-analysis of the deposited data

Results flagged for a closer look

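Of 116 groups of HPC-1 libraries examined, 11 (9.48%) held a library far from the rest by Dixon's criterion. Chance meets it in about 1 in 20 groups of independent, normally distributed values. The groups here share libraries, include genes chosen by their values and hold values at 0, so the 2 rates cannot be compared. All values here are log2(CPM + 1). At weeks 5 to 8, Ero1l was at 0 in 5-week replicate 1 beside 5.39 to 7.89 in the others, Dntt at 6.26 in 5-week replicate 2 beside 8.34 to 10.3, and Trim13 at 7.69 in 8-week replicate 2 beside 5.48 to 6.53. All 3 libraries had fewer than 11000 detected genes, and the part of this in the values was not tested.

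Steady-state replicate 8 stood low in 4 groups. It held Hspa5 at 7.25 beside 8.57 to 9.63, Il7r at 0 beside 4.25 to 6.21, Pfkm at 1.53 beside 2.71 to 3.55, and the mean of the endoplasmic reticulum chaperones at 5.43 beside 6.43 to 7.19. Among the other steady-state libraries, Elane was at 0 in replicate 1 beside 5.56 to 9.36, Ifi44 at 3.49 in replicate 7 beside 5.69 to 7.08, and Cd9 at 6.52 in replicate 4 beside 7.03 to 7.44. Slfn2 was at 0.286 in replicate 2 and at 0 in the other steady-state libraries.

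Plac8 is given here because its change differed between the populations by test: the change in HPC-1 minus that in HSC was -2.71 on the log2 scale, as described above.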

How the results depend on the processing

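The pooled comparison had 0 edgeR calls under other scaling, filters, blocks and library choices except without steady-state replicate 1, where 1 gene was called (Gm11837, with 0 to 0.368 CPM at weeks 5 to 8 and 1.9 to 30.2 CPM at steady state). Counts over single left-out libraries ran from 0 to 1 for the pooled comparison, 0 to 140 at 5 weeks, 0 to 0 at 6 weeks, 0 to 5 at 8 weeks, 0 to 64 for the difference among weeks, and 0 to 3 for HPC-1 minus HSC. The libraries behind these counts were, at 5 weeks, 5-week replicate 3 (140), 8-week replicate 1 (1, B4gat1) and 8-week replicate 2 (1, Zfp74), at 8 weeks 8-week replicate 3 (5), and for the difference among weeks 5-week replicate 3 (64) and 8-week replicate 3 (2). DESeq2 called 3 genes pooled, 105, 14 and 126 at 5, 6 and 8 weeks, 46 for the difference among weeks, 3 against weeks 3 and 4, 9 against weeks 10 to 16 and 30 for HPC-1 minus HSC. Voom called 1 gene pooled. With no filter 1 gene was called at 5 weeks, and without the near-identical libraries 8 at 8 weeks and 3 for the difference. The count for HPC-1 minus HSC was 0 with RLE scaling and 0 with a replicate block.

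The deviations of libraries that share a replicate number had correlations of 0.0814, -0.0109 and -0.298 for numbers 1, 2 and 3. Only number 1 had its own number as best match. Each correlation is for a replicate number as a whole and not for each week, so it cannot decide whether samples are paired within a week. The fit with a replicate block gave 0 pooled calls with 103 genes at an unadjusted p under 0.05, against 206 without it. Most steady-state libraries have a replicate number that no transplanted library shares, so they stand alone in their block and add nothing to that comparison. The lower count can follow from this loss of libraries and cannot show whether the samples are paired.

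Signs turned for Fos, with -0.469 by voom and -0.249 with the block of 12 description numbers, and for Cd69, with -0.93 by voom, -0.231 with equal weeks and -0.553 with the block of 12. The cause was not tested. Over single left-out libraries, the difference between groups ran from 226000 to 677000 in total counts, -1730 to -1080 in detected genes, -0.184 to 0.108 percentage points in mitochondrial share, -0.436 to 0.37 in the share of the top 50 genes and 0.003 to 0.046 in the TMM factor. Without 6-week replicate 3 the detected-gene difference had p = 0.0196 (exact permutation). The median SE of 0.61 limits what pooled changes could be detected.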

Other observations

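Slfn2, a gene of lymphocyte quiescence, was read in 7 of 9 libraries of weeks 5 to 8, with up to 26.4 CPM, and in 1 of 8 steady-state libraries, with 0.22 CPM. It was not tested in the pooled comparison. In the week fits Slfn2 was higher than at steady state at 5, 6 and 8 weeks (unadjusted p = 0.000755, 0.00075 and 0.000125, edgeR). It was not called at any week, with an adjusted p of 0.527 at 8 weeks by edgeR. No fold is given, as all but 1 of the steady-state libraries were at 0. Nqo1, an enzyme of the antioxidant response, had 1.25, 18.5 and 83.8 CPM at weeks 5 to 8 and 0, 5.59 and 14.7 CPM at steady state (log2 change 2.31, SE 0.995, unadjusted p = 0.0308, edgeR). Cd9, a tetraspanin of platelets and early progenitors, had 87.4, 264 and 353 CPM at weeks 5 to 8 and 90.7, 151 and 173 CPM at steady state (0.60, SE 0.253). Genes of p53 targets were positive in 14 of 19 tested, with a median of 0.646, or 0.0442 with the block of 12 description numbers. The medians at 5, 6 and 8 weeks were 0.0146, 0.0996 and 0.335. These are over the genes kept in the week fit, which can differ from those of the pooled fit.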
